A study of Mus musculus with 8 samples.

Results

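Fatty acid transport proteins, encoded by the Slc27a genes, and long-chain acyl-CoA synthetases, encoded by the Acsl genes, were followed across 3 fat depots of cold-exposed mice. The group held 9 of the 22552 genes in the deposited tables, namely Slc27a1, Slc27a2, Slc27a3, Slc27a4 and Slc27a6 and Acsl1, Acsl3, Acsl4 and Acsl5. They were taken by gene symbol because earlier results of these libraries had shown Slc27a1 and Slc27a2 to differ in opposite directions between depots. The levels of the 9 genes between depots are therefore a description, without p-values.

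The libraries hold RNA bound to tagged ribosomes of cells in which Ucp1, the gene of the uncoupling protein of thermogenic fat, drives the tag (UCP1-TRAP, translating ribosome affinity purification). There were 3 libraries of inguinal white adipose tissue (WAT), 2 of perigonadal WAT and 3 of brown adipose tissue (BAT), precipitated with an antibody against GFP. All came from 6-week-old female C57B/6 UCP1-TRAP mice, bred at 30 °C, weaned at 3 weeks to room temperature and kept for their last 2 weeks, from 4 weeks of age, at 4 °C. No group without cold and no unbound RNA was analysed here. The labels do not say that replicates were separate animals, so p-values measure the spread between these libraries, which may be technical.

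Long-chain fatty acids enter a fat cell through membrane proteins such as CD36 and the fatty acid transport proteins, and are held inside by joining them to coenzyme A. Fatty acid transport proteins themselves carry acyl-CoA synthetase activity, and the Acsl enzymes carry out the same activation on the endoplasmic reticulum, mitochondria and other membranes. The acyl-CoA formed is either built into triglyceride or burned, and in brown and beige fat cells oxidation feeds heat production through UCP1.

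Levels are in FPKM, which counts fragments relative to transcript length and to the size of the library, summed over the transcripts of a gene. The libraries were shallow, with an estimated 265959 to 1191439 fragments on the listed transcripts. Summed FPKM ran between 75924.9 in inguinal replicate 3 and 206549 in perigonadal replicate 1, so these libraries stood at the low and the high end of most genes. Median-ratio scaling divides each library by a factor, here between 0.545 and 1.83, so that the typical gene is level. It moved the median log2 fold change of all 8958 tested genes to 0.01 in inguinal WAT against BAT, to 0.02 in perigonadal WAT against BAT and to -0.01 in inguinal against perigonadal WAT. As deposited, these medians were 0.03, 0.52 and -0.50 in that order, and scaled values are given beside deposited ones for the main differences. In bulk RNA of this kind, fewer cells of a type and less RNA per cell cannot be told apart.

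Slc27a1 encodes FATP1, an insulin-responsive fatty acid transporter of fat and muscle. The gene lies at chr8:74092826-74110607 on the plus strand in the mm9 coordinates of the files, with 14 exons and 1 listed transcript of 2795 nt. It stood at 39.8, 55.5 and 18.8 FPKM in inguinal WAT and at 157 and 54.0 FPKM in perigonadal WAT, against 5.76, 5.16 and 5.02 FPKM in BAT. Every WAT library lay above every BAT library, and the BAT libraries hardly differed among themselves. The deposited confidence bounds of the lowest WAT library, inguinal replicate 3, were 15.7 to 21.9 FPKM, against an upper bound of 7.76 FPKM in the highest BAT library. The mean was 38.1 ± 18.4 FPKM in inguinal WAT (SD, n = 3), 105 ± 72.8 FPKM in perigonadal WAT (n = 2) and 5.31 ± 0.393 FPKM in BAT (n = 3). These means give 7.16-fold more in inguinal WAT and 19.8-fold more in perigonadal WAT than in BAT.

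On the log2(FPKM + 1) scale the difference for Slc27a1 was 2.50 (SE 0.42) in inguinal WAT against BAT and 3.89 (SE 0.47) in perigonadal WAT against BAT. After scaling they were 2.51 (SE 0.24) and 3.23 (SE 0.27). The perigonadal libraries lay far apart, and without perigonadal replicate 1 the difference from BAT was 3.13. In inguinal against perigonadal WAT the difference was -1.38 (SE 0.47), or -0.72 after scaling, and the libraries of these depots overlapped. The values of BAT rest on 33, 35 and 33.1 fragments, as recovered from the deposited bounds, and those of WAT on 145 to 1432.3. An estimate from FPKM and transcript length was lower, at 26.9, 26.4 and 25.6 fragments in BAT and 95.8 to 1122 in WAT.

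A 250-base window before the start of Slc27a1 is shown because this gene had the largest depot difference of the 9. It spans chr8:71568621-71568870 on the plus strand of GRCm38, from the promoter table of RefSeq, which has 3 windows for this gene, and capitals mark CCAAT.
Slc27a1: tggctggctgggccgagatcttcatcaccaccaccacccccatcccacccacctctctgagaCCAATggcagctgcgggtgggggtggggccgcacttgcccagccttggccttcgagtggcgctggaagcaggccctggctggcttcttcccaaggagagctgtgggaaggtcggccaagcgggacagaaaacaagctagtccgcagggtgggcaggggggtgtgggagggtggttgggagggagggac
The window is 66.4% G or C. CCAAT, searched on both strands, is in 33.9% of all 32851 windows of this length, so the match is common. No AGGTCA, the core motif of nuclear receptors such as PPARs, was found in these letters.

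Slc27a2 encodes FATP2, a very-long-chain acyl-CoA synthetase and transporter best known from liver and kidney. It lies at chr2:126378760-126413979 on the plus strand in mm9, with 10 exons and a transcript of 2301 nt. Its levels ran the other way, with 18.5, 24.1 and 11.2 FPKM in inguinal WAT and 21.5 and 22.0 FPKM in perigonadal WAT, against 45.4, 54.5 and 51.3 FPKM in BAT. All 5 WAT libraries lay below all 3 BAT libraries. The mean was 17.9 ± 6.49 FPKM in inguinal WAT, 21.8 ± 0.373 FPKM in perigonadal WAT and 50.4 ± 4.61 FPKM in BAT (SD, n = 3, 2 and 3). BAT thus held 2.81 times the inguinal and 2.32 times the perigonadal level.

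The log2 difference for Slc27a2 was -1.50 (SE 0.40) in inguinal WAT against BAT and -1.17 (SE 0.44) in perigonadal WAT against BAT. Scaling left the first at -1.52 (SE 0.21) and put the second at -1.82 (SE 0.24). Between inguinal and perigonadal WAT it was -0.33 as deposited and 0.31 after scaling, so the direction turned with the scaling and the libraries overlapped. The counts behind it, as recovered from the deposited bounds, were 57 to 140 fragments per WAT library and 199 to 275 per BAT library.

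In the RefSeq window before the start of Slc27a2, 1 copy of AGGTCA lies on the minus strand, 220 bases before the start. It is shown with its flanks because AGGTCA is the core motif bound by PPARs, and capitals mark it. The stretch is chr2:126552792-126552821 on the plus strand of GRCm38, and the rest of the window is not printed because another annotated transcript has an exon there.
Slc27a2: gcaccacgccttTGACCTtttcaacgtggg
AGGTCA on either strand is in 14.0% of all windows. A direct repeat of AGGTCA with any 1 base between the copies, on either strand, is in 0.0335% of all windows and was in none of the 11 windows of the 8 matched members. A match here is a property of the letters only.

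**Figure D1:**
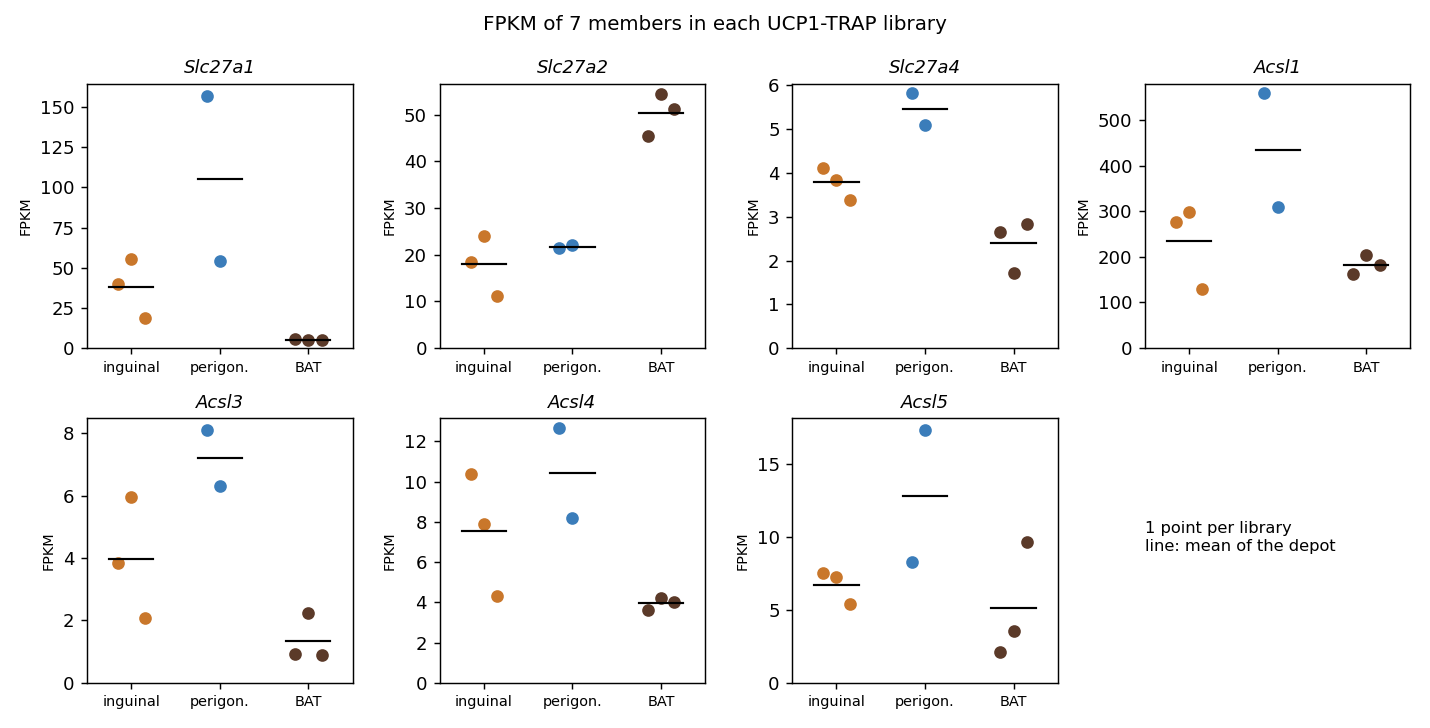
FPKM of the 7 genes that passed the minimum, on linear axes that start at 0, with 3 inguinal WAT, 2 perigonadal WAT and 3 BAT libraries as points and depot means as lines. Slc27a1 lay at 18.8 to 157 FPKM in WAT libraries and at 5.02 to 5.76 FPKM in BAT libraries, while Slc27a2 lay at 11.2 to 24.1 FPKM in WAT and 45.4 to 54.5 FPKM in BAT.

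Because the genes ran in opposite directions, their ratio within a library, which no scaling of the library changes, separated WAT from BAT more widely than either gene alone. Slc27a1 exceeded Slc27a2 by 2.15, 2.31 and 1.68 times in inguinal WAT and by 7.30 and 2.45 times in perigonadal WAT, against ratios of 0.127, 0.0948 and 0.0977 in BAT. Put the other way, Slc27a2 in BAT was 7.89, 10.6 and 10.2 times Slc27a1. Every WAT library had more Slc27a1 and every BAT library more Slc27a2. The log2 ratio, with 1 FPKM added to each gene, was 0.98 ± 0.25 in inguinal WAT, 2.03 ± 1.10 in perigonadal WAT and -3.02 ± 0.21 in BAT (SD).

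**Figure D2:**
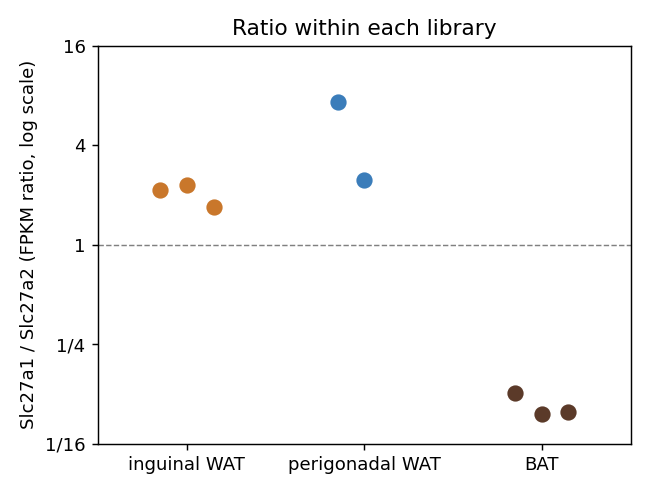
Ratio of Slc27a1 to Slc27a2 within each library on a log axis, 1 point per library, with inguinal and perigonadal WAT left of BAT. The WAT points lie between 1.68 and 7.30 and the BAT points between 0.0948 and 0.127.

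The summed level of the 5 Slc27a genes differed less than its makeup. It was 62.8, 83.5 and 33.3 FPKM in inguinal WAT and 185 and 81.1 FPKM in perigonadal WAT, against 53.8, 61.4 and 59.2 FPKM in BAT. The inguinal and BAT libraries thus overlapped, while both perigonadal libraries lay above all BAT libraries. Slc27a1 made up 63.4, 66.5 and 56.4% of that sum in inguinal WAT and 85.0 and 66.6% in perigonadal WAT, against 10.7, 8.41 and 8.48% in BAT. Slc27a2 made up 28.9 to 33.5% in inguinal WAT and 11.7 and 27.2% in perigonadal WAT, against 84.4 to 88.8% in BAT. The leading transporter transcript was thus Slc27a1 in all WAT libraries and Slc27a2 in all BAT libraries.

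Slc27a4, whose product FATP4 is the main transporter of the small intestine, was a minor member in all depots. It stood at 4.12, 3.85 and 3.39 FPKM in inguinal WAT and at 5.84 and 5.09 FPKM in perigonadal WAT, against 2.64, 1.71 and 2.83 FPKM in BAT. No WAT library reached down to a BAT library as deposited, but after scaling the perigonadal libraries, at 3.18 and 4.42 FPKM, overlapped with BAT, at 1.90 to 3.20 FPKM. The log2 difference was 0.51 (SE 0.39) in inguinal and 0.94 (SE 0.43) in perigonadal WAT against BAT, or 0.52 (SE 0.26) and 0.40 (SE 0.29) after scaling, and that of inguinal against perigonadal WAT turned from negative (-0.43) to positive (0.12) with the scaling.

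Slc27a3, a member with acyl-CoA synthetase activity, was listed at 0.347 FPKM in inguinal replicate 1 and at 0.405 FPKM in perigonadal replicate 1, against 0 in all BAT libraries, and was also at 0 in the other WAT libraries. These values stand for 2 and 3 fragments. Slc27a6, known from heart muscle, was listed at 0 in all 8 libraries, where 3 fragments would have been about 0.451 to 0.692 FPKM. At this depth neither gene's depots could be told apart, and neither passed the minimum of 1 FPKM in 2 libraries.

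Acsl1, the main long-chain acyl-CoA synthetase of fat cells, was by far the most abundant of the 9 genes in every library. It lies at chr8:47556396-47621404 on the plus strand in mm9, with 21 exons and a transcript of 3891 nt. It stood at 276, 298 and 129 FPKM in inguinal WAT and at 558 and 309 FPKM in perigonadal WAT, against 163, 203 and 182 FPKM in BAT. Inguinal libraries overlapped with BAT and perigonadal libraries lay above it. The means were 234 ± 91.9, 434 ± 177 and 183 ± 20.0 FPKM in inguinal WAT, perigonadal WAT and BAT (SD, n = 3, 2 and 3).

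After scaling, the libraries drew together at 227, 262 and 236 FPKM in inguinal WAT, 305 and 268 FPKM in perigonadal WAT, and 176, 225 and 205 FPKM in BAT. Both WAT depots were then above BAT in every library, by a small margin. The log2 difference was 0.27 (SE 0.34) in inguinal WAT against BAT, and 1.18 (SE 0.37) in perigonadal WAT against BAT, which scaling brought to 0.50 (SE 0.18). Without perigonadal replicate 1 the deposited value was 0.76. Set against Adipoq, the adiponectin gene of all fat cells, Acsl1 was 1.04, 1.38 and 1.02 times its level in inguinal WAT and 1.34 and 1.45 times in perigonadal WAT, against 0.801, 1.08 and 1.26 times in BAT, and these ratios overlapped between inguinal WAT and BAT.

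The window before a start of Acsl1 in the RefSeq promoter table, chr8:46470787-46471036 on the plus strand of GRCm38, is shown as that of the most abundant member. Capitals mark GGGCGG, the GC box.
Acsl1: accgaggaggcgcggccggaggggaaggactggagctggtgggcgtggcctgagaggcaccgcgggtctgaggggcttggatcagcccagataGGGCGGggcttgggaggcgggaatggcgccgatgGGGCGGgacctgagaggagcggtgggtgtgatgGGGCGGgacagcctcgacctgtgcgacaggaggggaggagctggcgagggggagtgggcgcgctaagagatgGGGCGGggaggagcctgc
It is 72% G or C and holds 4 copies of GGGCGG, a motif found on either strand in 32.7% of all windows. As in the Slc27a1 window, no AGGTCA was found. Another window of Acsl1, chr8:46490716-46490965 on the plus strand, differs. It is 48.4% G or C, with 0 copies of GGGCGG and 2 of CCAAT.

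Acsl1 made up 92.7, 93.4 and 91.6% of the summed Acsl level in inguinal WAT and 95.0 and 90.6% in perigonadal WAT, against 96.1, 95.3 and 92.6% in BAT. The other 3 shared the rest, with Acsl5 between 1.23% (BAT replicate 1) and 5.10% (perigonadal replicate 2), Acsl4 between 1.98 and 3.49% and Acsl3 between 0.449 and 1.87%. The makeup of the synthetases, unlike that of the transporters, was led by the same gene in all 8 libraries. Relative to the transporters, Acsl1 was 5.36 to 6.92 times Slc27a1 in inguinal WAT and 3.56 and 5.72 times in perigonadal WAT, against 28.4 to 39.4 times in BAT. The summed Acsl level was 3.82 to 4.74 times the summed Slc27a level in inguinal WAT and 3.18 and 4.20 times in perigonadal WAT, against 3.16 to 3.48 times in BAT, with the perigonadal and BAT libraries overlapping.

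**Figure D3:**
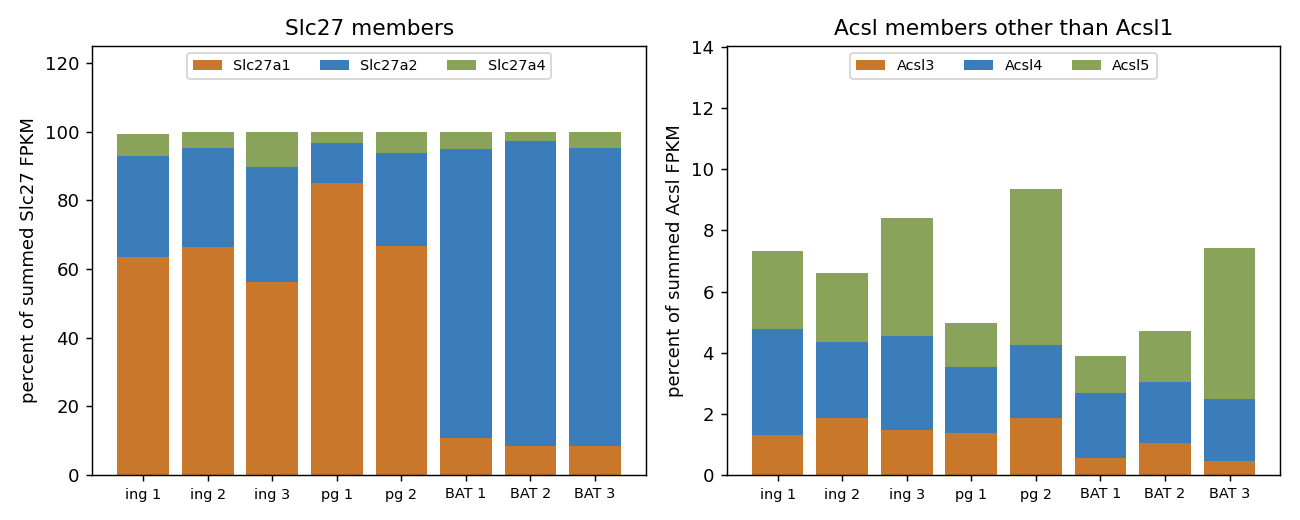
Shares in the summed FPKM of the Slc27a genes (left panel) and, without Acsl1, of the Acsl genes (right panel), in percent, 1 stacked bar per library, inguinal (ing) and perigonadal (pg) WAT left of BAT. Slc27a1 takes 56.4 to 85.0% of the Slc27a sum in WAT and 8.41 to 10.7% in BAT, and the bars of the right panel are short because Acsl1 takes 90.6 to 96.1% of the Acsl sum.

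Acsl4 prefers arachidonic acid and other polyunsaturated fatty acids. Its level was 10.4, 7.92 and 4.30 FPKM in inguinal WAT and 12.7 and 8.17 FPKM in perigonadal WAT, against 3.63, 4.22 and 4.02 FPKM in BAT. The WAT libraries all lay above BAT, though inguinal replicate 3 only just did. Scaled levels were 8.55, 6.96 and 7.90 FPKM in inguinal WAT and 6.92 and 7.09 FPKM in perigonadal WAT, against 3.92, 4.68 and 4.54 FPKM in BAT, a wider gap between WAT and BAT with less spread. The log2 difference was 0.72 (SE 0.40) in inguinal WAT and 1.18 (SE 0.45) in perigonadal WAT against BAT, or 0.71 (SE 0.17) and 0.58 (SE 0.19) after scaling. Between inguinal and perigonadal WAT it was -0.46 as deposited and 0.13 scaled, again a turn of direction.

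Acsl3, a synthetase of the endoplasmic reticulum and lipid droplets, was at 3.85, 5.95 and 2.07 FPKM in inguinal WAT and 8.12 and 6.32 FPKM in perigonadal WAT, against 0.911, 2.26 and 0.883 FPKM in BAT. Perigonadal libraries lay above BAT, and inguinal replicate 3 fell under BAT replicate 2 as deposited. Scaled, at 3.17, 5.23 and 3.81 FPKM in inguinal WAT against 0.982, 2.50 and 0.996 FPKM in BAT, the inguinal libraries also cleared BAT. The log2 difference was 1.05 (SE 0.40) in inguinal WAT and 1.85 (SE 0.44) in perigonadal WAT against BAT, or 1.06 (SE 0.27) and 1.30 (SE 0.30) after scaling. Its exons overlap with those of Utp14b on the same strand, so its level is uncertain.

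The deposited split of Acsl3 and Acsl4 between transcripts is less certain still. For Acsl4, a transcript of 4987 nt took 82.5, 99.3 and 99.3% of the gene's FPKM in inguinal WAT. One of 4990 nt, 3 nt longer with as many exons, took nearly all in both perigonadal libraries and in BAT replicates 1 and 3. BAT replicate 2 placed 73.0% on a transcript of 5280 nt. If the transcripts of 4987 and 4990 nt differ at 3 nt alone, only the few fragments that cross these can tell them apart. This split was not used.

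Acsl5, an enzyme of mitochondria and endoplasmic reticulum abundant in intestine and liver, was the most scattered member. It stood at 7.53, 7.24 and 5.43 FPKM in inguinal WAT and at 8.32 and 17.4 FPKM in perigonadal WAT, against 2.10, 3.58 and 9.69 FPKM in BAT. BAT replicate 3 lay above all inguinal libraries and above perigonadal replicate 1, so neither WAT depot was separate from BAT, scaled or not. The deposited bounds were 0.833 to 3.36 FPKM in BAT replicate 1 and 7.08 to 12.3 FPKM in BAT replicate 3, and 6.26 to 10.4 and 14.0 to 20.7 FPKM in the perigonadal libraries. The replicates of these depots thus differed by more than their own bounds. The log2 difference was 0.53 (SE 0.42) in inguinal and 1.30 (SE 0.47) in perigonadal WAT against BAT, the second being 0.71 (SE 0.54) after scaling.

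Of the 9 genes, 7 were tested in the fit over all genes, and a member could pass the minimum through WAT alone. Acsl3, at 0.911, 2.26 and 0.883 FPKM in BAT, met the minimum of 1 FPKM in 2 libraries only through WAT libraries. Its calls as higher in WAT are therefore a description only. In inguinal WAT against BAT, Slc27a1 was past an adjusted p of 0.05 as higher, where 1.73% of all tested genes were, and Slc27a2 as lower, where 0.469% were (2.20% in either direction). The median log2 difference of the 7 was 0.53, beside 0.03 over all genes. In perigonadal WAT against BAT, Slc27a1, Acsl1 and Acsl3 were called higher, where 4.91% of all genes were, and none was called lower, where 0.268% were (5.18% in either direction), with 1 lower at an unadjusted p under 0.05. The median of the 7 was 1.18 there, beside 0.52 over all genes. After scaling, Acsl4 joined the calls of inguinal WAT against BAT, where 4.62% of all genes were called, and in perigonadal WAT against BAT, where 6.11% were, Slc27a2 joined and Acsl1 left. In inguinal against perigonadal WAT limma called none of the 7, where 0.703% of all genes were called, and 2 were lower at an unadjusted p under 0.05. Since the members were chosen on these contrasts, which share the BAT libraries, nothing is read from these counts.

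The members called also changed with the libraries in the model. Slc27a2 in inguinal WAT against BAT was not called without inguinal replicate 1 or without any 1 BAT library. With all libraries in the fit, 197 of 8958 genes were called there. Without inguinal replicate 1 they were 109 of 8685, and without 1 BAT library 123 to 142. Leaving out perigonadal replicate 1 leaves 1 perigonadal library, and the log2 differences of Acsl3 and Acsl1 between perigonadal WAT and BAT were then 1.69 and 0.76. In perigonadal WAT against BAT, Acsl1 was not called without inguinal replicate 1 or any 1 BAT library. Without inguinal replicate 3, the shallowest library, Slc27a2, Slc27a4 and Acsl4 were called in that comparison as well. Acsl5 was called there without BAT replicate 3. Over all genes that comparison had 464 of 8958 called, and 1326 of 8929 without inguinal replicate 3. Without inguinal replicate 1 they were 387 of 8685, and without 1 BAT library 258 to 268. Without perigonadal replicate 2, which also leaves 1 perigonadal library, the log2 difference of Slc27a1 in inguinal against perigonadal WAT was -2.14, against -1.38 with all libraries. With no filter on low values, only Slc27a1 in perigonadal WAT against BAT was called, where 116 of 15256 genes were. Nothing is read from these member calls either.

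**Figure D4:**
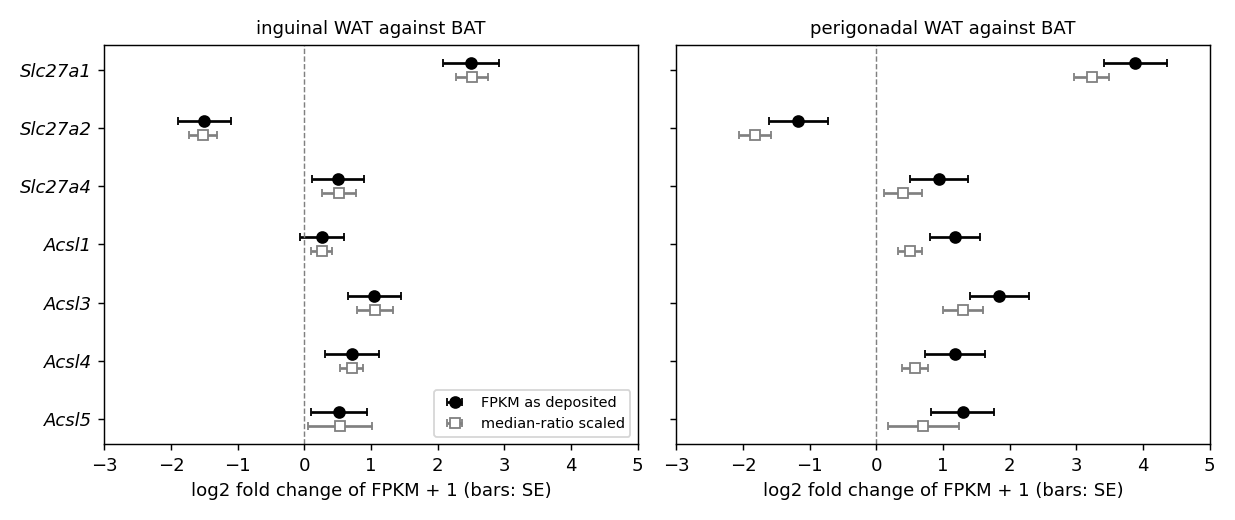
Log2 fold change of the 7 tested genes on the log2(FPKM + 1) scale in inguinal WAT (left) and perigonadal WAT (right) against BAT, as deposited and after median-ratio scaling, with standard errors as bars. Slc27a1 (2.50 and 3.89 against BAT) and Slc27a2 (-1.50 and -1.17 against BAT) lie farthest above and farthest below 0.

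The libraries also differed in markers of other cells, which stand beside these levels. Marker levels are given as deposited only. The scaling factors ran from 0.545 in inguinal replicate 3 to 1.83 in perigonadal replicate 1. Overlaps and differences of markers between depots can therefore move with scaling. All 7 adipocyte markers averaged at least 1 FPKM in every depot, and summed to 2724 to 5379 FPKM in inguinal WAT and 5403 to 8423 FPKM in perigonadal WAT, against 3204 to 3801 FPKM in BAT. The 8 thermogenic markers summed to 1427 to 3193 FPKM in inguinal WAT and 3169 to 3440 FPKM in perigonadal WAT, against 3985 to 5045 FPKM in BAT, so every WAT library was below every BAT library. Of these, Ucp1 was at 592 to 1417 and 1282 to 1593 FPKM in inguinal and perigonadal WAT, against 1313 to 1575 FPKM in BAT. The deposited Ucp1 levels overlapped, and the labelled cell type was present throughout. The summed mammary luminal markers were at 97.2 to 124.6 FPKM in inguinal WAT and 2.58 to 4.08 FPKM in perigonadal WAT, against 7.02 to 22.6 FPKM in BAT, where 11 of 14, Krt8, Krt18 and Epcam among them, were at 0. Basal and myoepithelial markers summed to 10.8 to 28.97 FPKM in inguinal WAT and 4.87 to 5.76 FPKM in perigonadal WAT, against 0 for all 5 in BAT. These markers thus stood highest in the inguinal libraries. Smooth muscle markers summed to 42.4 to 133.8 FPKM in inguinal WAT and 7.96 to 14.4 FPKM in perigonadal WAT, against 6.90 to 8.24 FPKM in BAT. Fibroblast markers summed to 13.9 to 22.2 FPKM in inguinal WAT and 20.5 to 110.8 FPKM in perigonadal WAT, against 3.39 to 10.4 FPKM in BAT. Endothelial markers summed to 1.27 to 4.65 FPKM in inguinal WAT and 8.95 to 16.7 FPKM in perigonadal WAT, against 2.76 to 4.58 FPKM in BAT, and macrophage markers to 2.68 to 5.10, 6.07 to 12.4 and 3.66 to 6.97 FPKM in the same order. Fibroblast, endothelial and macrophage sums were thus highest in a perigonadal library. Skeletal muscle markers summed to at most 0.559 FPKM in inguinal WAT and 1.09 FPKM in perigonadal WAT, against at most 1.96 FPKM in BAT. These sums are near the floor, as 3 fragments of Slc27a6 would have been about 0.451 to 0.692 FPKM. The depots are therefore not compared in them. The part of other cells in the levels of the 9 genes was not tested.

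The other genes of fatty acid handling were described from a list of 66, of which 53 were tested. The list was chosen with earlier results of these data known. Abcd2, which is counted among its calls, passed the minimum through WAT libraries alone. Nothing is therefore read from the shares of the list beside those of all genes. The counts below at an unadjusted p under 0.05 stand without the share of all genes, so nothing is read from them either. In inguinal WAT against BAT, 4 were called higher and 0 lower by limma, or 7.55% of the list beside 2.20% of all genes, and at an unadjusted p under 0.05 they were 5 and 1. After scaling, 4 were called higher and 1 lower, where 4.62% of all genes were called, with 9 and 4 at an unadjusted p under 0.05. The median log2 fold change was 0.11 over the list and 0.03 over all genes. In perigonadal WAT against BAT, 8 were called higher and 0 lower, or 15.1% beside 5.18%, with 20 and 0 at an unadjusted p under 0.05. After scaling, 6 were called higher and 1 lower, where 6.11% of all genes were called. At an unadjusted p under 0.05 they were 8 and 5, so the split by direction moved with the scaling. The median there was 0.72 over the list and 0.52 over all genes, or 0.09 and 0.02 after scaling. In inguinal against perigonadal WAT none was called, where 0.703% of all genes were, and 14 were lower at an unadjusted p under 0.05. The median was -0.65 beside -0.50 over all genes. After scaling limma again called none, 4 were lower and 0 higher at an unadjusted p under 0.05, and the median was -0.02 beside -0.01.

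Among 11 tested uptake and binding partners, Fabp5, which encodes a fatty acid binding protein of skin and fat and has near-identical pseudogenes that can share its reads, showed the widest difference. It stood at 59.7, 124.7 and 57.8 FPKM in inguinal WAT and 154 and 135 FPKM in perigonadal WAT, against 4.56, 8.73 and 15.6 FPKM in BAT. It rose in both WAT depots, by 2.99 (SE 0.41, adjusted p = 1.07e-07) and 3.92 (SE 0.45, adjusted p = 8.68e-10) on the log2 scale, the second being 3.25 (SE 0.46, adjusted p = 0.00366) after scaling. Fabp4, the main fatty acid binding protein of fat cells, was called in perigonadal WAT against BAT (log2 0.90, adjusted p = 0.0151), and the call was lost after scaling (0.22, adjusted p = 0.616) and without perigonadal replicate 1 (adjusted p = 0.821), BAT replicate 2 (0.0556) or BAT replicate 3 (0.0779). Fabp3, the heart and brown fat form, was at 345, 387 and 178 FPKM in inguinal WAT and 491 and 366 FPKM in perigonadal WAT, against 537, 470 and 710 FPKM in BAT. After scaling it was called lower in both WAT depots, at -0.98 (adjusted p = 0.0205) in inguinal and -1.09 (adjusted p = 0.0171) in perigonadal WAT, but not as deposited (adjusted p = 0.0889 and 0.448).

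Among 7 tested other acyl-CoA synthetases, Acss2 and Aacs rose in both WAT depots. Acss2 activates acetate in the cytosol, and it stood at 26.6, 36.0 and 15.95 FPKM in inguinal WAT and 60.0 and 43.1 FPKM in perigonadal WAT, against 5.55, 5.49 and 7.02 FPKM in BAT. The WAT libraries lay well above BAT. Its log2 fold change was 1.89 (adjusted p = 0.00144) in inguinal and 2.89 (adjusted p = 3.72e-06) in perigonadal WAT against BAT, the second being 2.24 (adjusted p = 0.000586) after scaling. Aacs activates acetoacetate for lipid synthesis, and it was at 30.7, 34.4 and 23.0 FPKM in inguinal WAT and 57.3 and 52.1 FPKM in perigonadal WAT, against 4.63, 5.49 and 9.41 FPKM in BAT. Its log2 fold change was 2.05 (adjusted p = 0.000364) and 2.94 (adjusted p = 2.26e-06) in the same comparisons, the second being 2.29 (adjusted p = 0.00325) after scaling. No WAT library of either gene overlapped with BAT. Acsm3, a medium-chain synthetase, was called in perigonadal WAT against BAT (1.55, adjusted p = 0.0245), a call that scaling ended (adjusted p = 0.0832) and that leaving out either perigonadal library or any BAT library also ended.

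Among 11 tested genes of mitochondrial and peroxisomal import, Abcd2, a peroxisomal transporter of very-long-chain acyl-CoA, is counted among the calls in both WAT depots. It was at 6.87, 8.13 and 1.89 FPKM in inguinal WAT and 22.6 and 7.83 FPKM in perigonadal WAT, against 0.146, 0.146 and 0.441 FPKM in BAT. It passed the minimum of 1 FPKM through WAT libraries alone, so it is given as a description, with a log2 difference of 2.26 in inguinal and 3.54 in perigonadal WAT against BAT, or 2.30 and 3.01 after scaling. With 1 FPKM added, these values also understate the change of so low a level. Of 11 tested glycerolipid genes, Agpat9, an acyltransferase of the first step of triglyceride synthesis, was called in perigonadal WAT against BAT (1.73, adjusted p = 0.0126), and after scaling (1.12, adjusted p = 0.0263), but not without perigonadal replicate 1 (adjusted p = 0.838) or BAT replicate 1 (adjusted p = 0.0697). With no filter on low values, the calls of Fabp5, Acss2 and Aacs in inguinal WAT against BAT were lost, at adjusted p between 0.0842 and 0.0907.

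None of 5 tested acyl-CoA binding proteins and none of 8 tested PPAR regulators was called by limma in any comparison. At an unadjusted p under 0.05, 1 of each was higher in perigonadal WAT than in BAT, and 1 of each was lower in inguinal than in perigonadal WAT. The share of all genes at that unadjusted p is not given, so nothing is read from these counts. Dbi, the main acyl-CoA binding protein, was at 963, 999 and 754 FPKM in inguinal WAT and 1212 and 986 FPKM in perigonadal WAT, against 770, 839 and 698 FPKM in BAT (log2 0.23 and 0.51, adjusted p = 0.981 and 0.285), and the perigonadal value was -0.17 after scaling. Pparg, the nuclear receptor that drives fat cell differentiation, was at 31.4, 24.7 and 12.2 FPKM in inguinal WAT and 45.0 and 26.9 FPKM in perigonadal WAT, against 26.7, 36.6 and 21.7 FPKM in BAT. Its depots overlapped (log2 -0.37 and 0.32, adjusted p = 0.980 and 0.659), and the perigonadal value was -0.34 after scaling. Agpat2, the abundant acyltransferase lost in a human lipodystrophy, was at 548 ± 225 FPKM in inguinal WAT, against 468 ± 49.0 FPKM in BAT (log2 0.14, adjusted p = 0.995). In inguinal against perigonadal WAT, the most abundant tested genes of the 6 roles were Fabp4, Aacs, Dbi, Acadvl, Agpat2 and Pparg. Their log2 differences were -0.69, -0.89, -0.28, -0.31, -0.63 and -0.69, with adjusted p between 0.236 and 0.570. After scaling Dbi, Acadvl and Agpat2 turned to 0.39, 0.36 and 0.04.

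**Figure D5:**
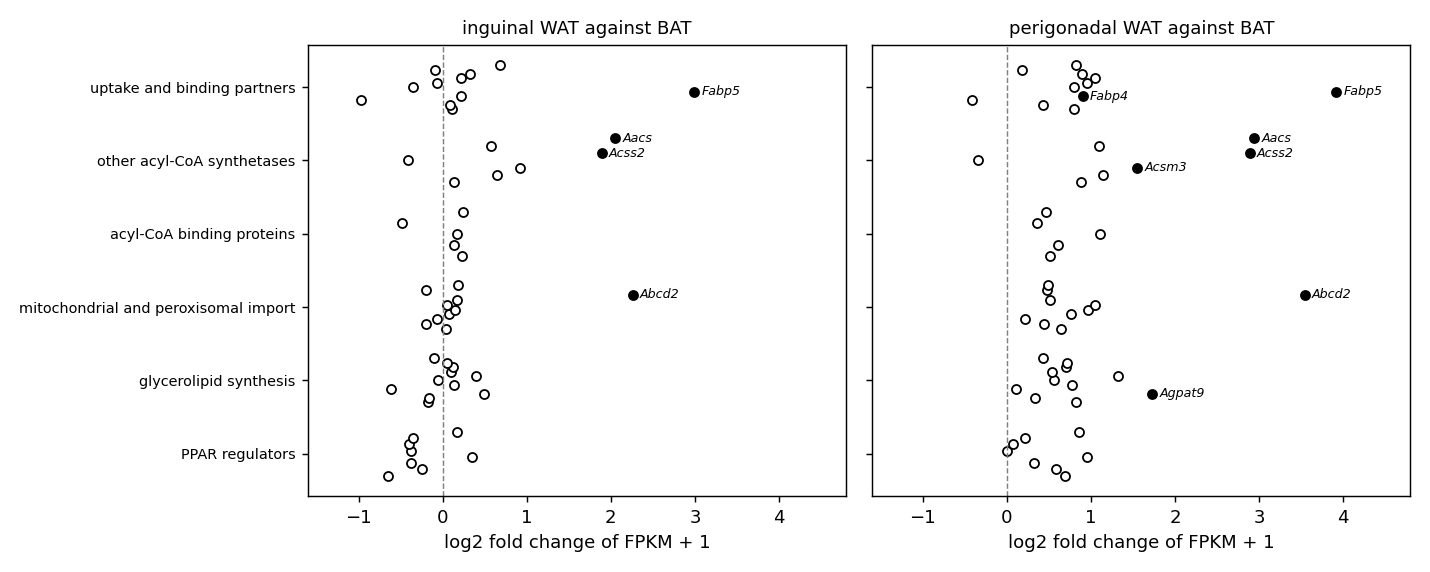
Log2 fold change, on the log2(FPKM + 1) scale, of tested genes of fatty acid handling by role, all but 1 of the 53, in inguinal WAT (left) and perigonadal WAT (right) against BAT, with filled points past an adjusted p of 0.05. Fabp5 (2.99 and 3.92), Abcd2 (2.26 and 3.54), Aacs (2.05 and 2.94) and Acss2 (1.89 and 2.89) lie farthest above 0. Abcd2 passed the minimum through WAT libraries alone.

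The tested genes most like each of 4 members were named by Pearson r of scaled log2 levels over the 8 libraries, among 3085 genes with a mean of at least 5 FPKM. Libraries of a depot share its level, so the r mostly reflects 3 depots and carries no p. For Slc27a1 they were Slc25a10 (r = 0.990), a mitochondrial dicarboxylate carrier, Abcd2 (0.988) and Car5b (0.982), a mitochondrial carbonic anhydrase. With BAT means of 0.372, 0.245 and 1.83 FPKM, these genes reached the mean of 5 FPKM only through WAT libraries. Ltbp3 and Tmem79, named below, averaged 3.65 and 4.855 FPKM in BAT and also needed the WAT libraries. The likeness of such genes to a member higher in WAT is in part set by this minimum, and nothing is read from it. Slc25a10 averaged 6.85 FPKM in inguinal WAT and 20.1 FPKM in perigonadal WAT, against 0.372 FPKM in BAT. Car5b averaged 16.4 FPKM in inguinal WAT and 32.6 FPKM in perigonadal WAT, against 1.83 FPKM in BAT. For Slc27a2 they were Ninj1 (0.989), Lamtor2 (0.986) and Bola3 (0.982), which takes part in assembling mitochondrial iron-sulfur proteins and averaged 38.3 FPKM in inguinal WAT and 47.5 FPKM in perigonadal WAT, against 94.0 FPKM in BAT. For Acsl1, Ltbp3 (0.986) and Acaa1b (0.983), a peroxisomal thiolase that can share reads with its close paralog Acaa1a, were among them. For Acsl5, whose replicates scattered most, they were Serpinh1 (0.915), Tmem79 (0.909) and Raly (0.902).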

How the data were processed

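RNA from UCP1-TRAP immunoprecipitates was sequenced in 3 inguinal WAT, 2 perigonadal WAT and 3 BAT libraries, grouped by tissue label and title. The submitters' processing notes name TopHat, Cufflinks and the build mm9, without versions or options. The deposited FPKM values, computed by the authors, with confidence bounds, sit as text in another attribute of each of 28702 transcript lines. Such FPKM are on no common scale between libraries beyond library size, and transcript splits are estimates.

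FPKM was summed per gene. Fragments were recovered from FPKM and its upper bound in genes with 1 transcript, and 84.8 to 92.9% of low values came out whole within 0.05. No count test was used. Genes with at least 1 FPKM in at least 2 libraries and a transcript of at least 300 nt were tested with limma 3.58.1 (R 4.3.3), with a variance trend, on log2(FPKM + 1), two-sided, all 8 libraries in 1 model, with Benjamini-Hochberg adjustment over 8958 genes at 0.05. Fold changes on this scale understate those of low genes. The test was checked on simulated data with large changes in inguinal WAT alone and no scale differences between libraries. Smaller changes and differences in scale were thus not covered. Python 3.11.15 made the tables and figures (numpy 2.4.6, pandas 2.3.3, matplotlib 3.10.9).

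The members and lists were chosen with earlier results of these data known. Named were the members, all called listed genes of a role (at most 4), otherwise its most abundant gene, and the 3 genes most like each of 4 members. Alternatives were other pseudocounts (0.1 and 5), filters, median-ratio scaling, fewer groups, a replicate block, the most abundant transcript, and leaving out each library. The values of 1 listed gene, which is included in the counts, are not reported here.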

Additional observations from a re-analysis of the deposited data

How the results depend on the processing

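Counts of called genes followed the settings more than the members' values did. In inguinal WAT against BAT, 197 genes were called, against 131 with a pseudocount of 0.1, 9 without the filter, 124 with a minimum of 5 FPKM and 414 after scaling (268 higher, 146 lower), and 109 to 336 when 1 library was left out. In perigonadal WAT against BAT, 464 genes (440 higher, 24 lower) stood against 214, 116 and 307 under the first 3 of these, 547 after scaling (234 higher, 313 lower) and 105 to 1326 with 1 library left out. In inguinal against perigonadal WAT, 63 genes stood against 5, 10, 32 and 28 under these 4, 146 with a pseudocount of 5, 35 with only these groups in the model and 11 to 220 with 1 library left out. Of the listed fatty acid genes, 4 were called in inguinal WAT against BAT, 0 without the filter and 4 to 5 with 1 library left out. In perigonadal WAT against BAT 8 were called, 5 without the filter, 13 with only these groups in the model, and 4 (without perigonadal replicate 1) to 25 (without inguinal replicate 3) with 1 library left out. In inguinal against perigonadal WAT 0 were called, 1 with a pseudocount of 5 and 0 to 3 with 1 library left out. The log2 ratio of Slc27a1 to Slc27a2 in BAT was -2.42 with a pseudocount of 5; with 1 library left out it was 0.88 to 1.12 in inguinal WAT, 1.26 to 2.81 in perigonadal WAT and -3.15 to -2.95 in BAT. Where perigonadal WAT is left with 1 library, that library is assumed to vary like the other groups. The cause of these shifts was not tested.

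With the replicate number as a block, 280, 418 and 88 genes and 5, 8 and 0 listed genes were called in the 3 comparisons, in the order above. Of the members, Acsl1 was then not called in perigonadal WAT against BAT, and Slc27a2 and Acsl5 were. Same-numbered inguinal and BAT libraries correlated at 0.080 to 0.126 in their deviations, and all 6 correlated best with their own number. Same-numbered pairs with a perigonadal library correlated at -0.0871 to -0.0136. A pairing of inguinal and BAT libraries is thus possible, and the main fit did not use it. Of 168 values of the members' differences under alternatives other than leaving out a library, 151 moved by less than 1 SD between replicates and 3 changed sign, all in inguinal against perigonadal WAT. Of 168 with a library left out, 164 moved by less than that and 0 changed sign. Depth limits Slc27a3, Slc27a6 and the transcript splits most.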
